A study of Rattus norvegicus with 49 samples.

Results

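The oldest and the youngest of 5 age groups were compared in the CA1 region of the hippocampus of Fisher 344 rats, an inbred strain used in studies of aging. The comparison was taken by its array titles and holds 22 of the 49 arrays of the study: 13 from rats labelled 23 months and 9 from rats labelled 3 months. The other 27 arrays, 9 each at 6, 9 and 12 months, entered the same fit and share its estimate of the spread. All animals, young and old, had been trained in the Morris water maze, in which a rat learns the place of a hidden platform, and were killed within a day of the last session. CA1 was dissected from the left hippocampus, and RNA of each rat was hybridised to its own Affymetrix RAE 230A array, so n counts animals. The series' design text gives the oldest group once as 25 and later as 23 months, and states that 2 aged rats were removed for poor health. No treatment or allele distinguishes the groups, and the labels used here do not give the sex. The old group is therefore made of rats that lived to that age and passed a health check, which limits it as a sample of the strain.

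CA1 is the field of pyramidal neurons that receives the Schaffer collaterals of CA3 and sends the signals of the hippocampus on to the cortex, and its synapses are used to store places. A dissected piece holds, beside pyramidal cells, interneurons, astrocytes, oligodendrocytes, microglia and vessels. With age, rodent hippocampus is known for more reactive glia and for weaker plasticity and altered calcium handling in neurons. The MHC class II, complement and microglial genes that lead the rise are put aside below, and the rest of the changed genes is described.

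Values are MAS5 signals, a scaled measure of hybridisation on a linear scale. Of 15923 probe sets, the groups of short probes that each read one transcript region, 9541 had 1 gene symbol and a signal of at least 100 on at least 5 of the 49 arrays, and these were tested. They stand for 8094 genes, of which 1215 had more than 1 tested probe set. A probe set was called, and is said below to have risen or fallen, at an adjusted p under 0.05 in limma, a linear model with a moderated spread, with Benjamini-Hochberg adjustment over the 9541. Log2 differences are 23 minus 3 months, with a standard error, and a log2 difference of 1 is a 2-fold change. Arrays of both groups had median signals from 208.7 to 224.5, and each had 10204 to 10725 probe sets at 100 or more. The log2 ratio of 3′ to 5′ probes, which rises as RNA degrades, exceeded the young value by 0.049 for GAPDH and 0.110 for actin (p = 0.139 and 0.0833 by permuting the animals exactly, two-sided; adjusted over the 2 tests, 0.139 for each). On 5 arrays transthyretin (Ttr), the leading transcript of the choroid plexus, had a signal of at least 3000: 3 months replicates 4, 6, 7 and 8 and 23 months replicate 11. The fit was repeated without them, on 5 young and 12 old animals, and genes whose call ended there are given with that adjusted p.

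The tissue was checked against cell markers. The CA1 markers Wfs1, Dkk3 and Mpped1 had median signals of 5605, 2185.5 and 3814 at 3 months and 5119.5, 2027 and 3871 at 23 months, and the pan-neuronal Snap25 10799 and 11676. Prox1, of dentate granule cells, was present on every array and varied widely, from 274 to 1073 (median 581) in the young and from 283 to 1066.5 (median 611) in the old. Its difference of 0.06 did not pass and turned to −0.09 without the arrays of high transthyretin. Of the meningeal and fibroblast genes, Dcn had medians of 456.9 in the young and 403.3 in the old, Lum 114.6 and 98.1, Col1a1 88.3 and 100.3 and Col1a2 59.6 and 43.6, with no call among those tested. The haemoglobin gene Hbb had medians of 18.9 and 17.3, although it reached 4388 and 659 on 23 months replicates 8 and 5. Of the T and B cell genes, Cd3e had medians of 113.8 and 102.9 and was not called, while Cd8a and Cd79b, at 15.7 and 5.5 in the young and 35.8 and 7.7 in the old, did not pass the filter. The summed signal of 29 microglial probe sets lay between 8641 and 9837 in the young and between 10982 and 14374 in the old, with no overlap. That of 45 astrocyte probe sets lay between 142497 and 164963 and between 147540 and 181776, and that of 50 neuronal probe sets between 172983 and 181173 and between 164509 and 181405. In whole tissue, more cells of a type and more RNA per cell cannot be told apart. What share of the changes below comes from the higher microglial level was not tested.

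In CA1 of old rats more transcripts had risen than fallen, and the rises were larger. limma called 298 of 9541 probe sets, 3.12%: 205 (2.15%) higher and 93 (0.975%) lower at 23 months, from 197 and 90 genes. At an unadjusted p under 0.05 the counts were nearly even, 748 higher and 639 lower. The lists of MHC class II presentation, complement and microglial markers held 29 of the called probe sets, 28 higher and 1 lower. Outside them 177 (1.86% of 9493) rose, from 170 genes, and 92 (0.969%) fell, from 89 genes. The median rise was 1.28-fold and the median fall 1.20-fold. Of the 177 rises 29 exceeded 1.5-fold and 1, Ecrg4, exceeded 2-fold. Of the 92 falls 7 exceeded 1.5-fold and 0 exceeded 2-fold. At 3 months the falls had a median signal of 678, against 377 for the rises and 406 for all tested. That is the age at which falls are high and rises low, so the choice of age sets part of this contrast. A mean under 100 at 3 months was seen for 21 of the rises and 0 of the falls. The signal filter sets part of this contrast. A probe set dim at 3 months can pass the filter through older arrays if it rose, but hardly if it fell.

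**Figure D1:**
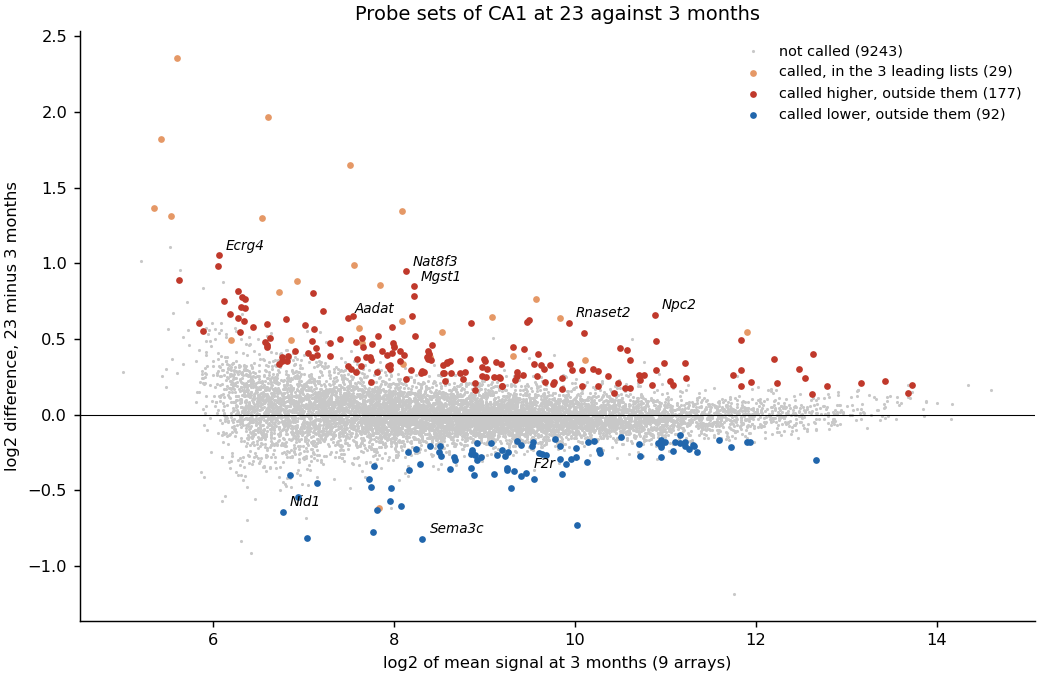
Each point is a probe set: the horizontal axis is the log2 of its mean signal at 3 months (9 arrays) and the vertical axis its log2 difference, 23 minus 3 months (13 and 9 arrays). Orange points are the 29 called members of the MHC class II, complement and microglial lists, red the 177 other rises and blue the 92 other falls, and grey points were not called; the rises outside the leading lists reach 1.05 and the falls −0.82 on the log2 scale.

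Single animals are described here for probe sets called on the same arrays, so the counts are no separate support. For 132 of the 177 rises all 13 old animals lay above the mean of the young, and for 50 of the 92 falls all 13 lay below it. The like count over all tested probe sets is not given. Without any overlap between the age groups stood 17 of the rises and 1 of the falls. Over all tested probe sets 30 (0.314%) had every old animal above every young one and 2 (0.021%) every old animal below, and all 32 were called. With the 5 arrays of high transthyretin left out these counts were 68 and 7. The 17 rises without overlap belong to Aadat, Anxa5, Arl11, Ecrg4, Il33, Lamp2, Mgst1, Mpeg1, Ms4a6bl1, Nat8f3, Npc2, Phyhd1, Pon2, Rnaset2, Sema3b, Tmem176a and Wnk1, and the fall to Dclk1.

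**Figure D2:**
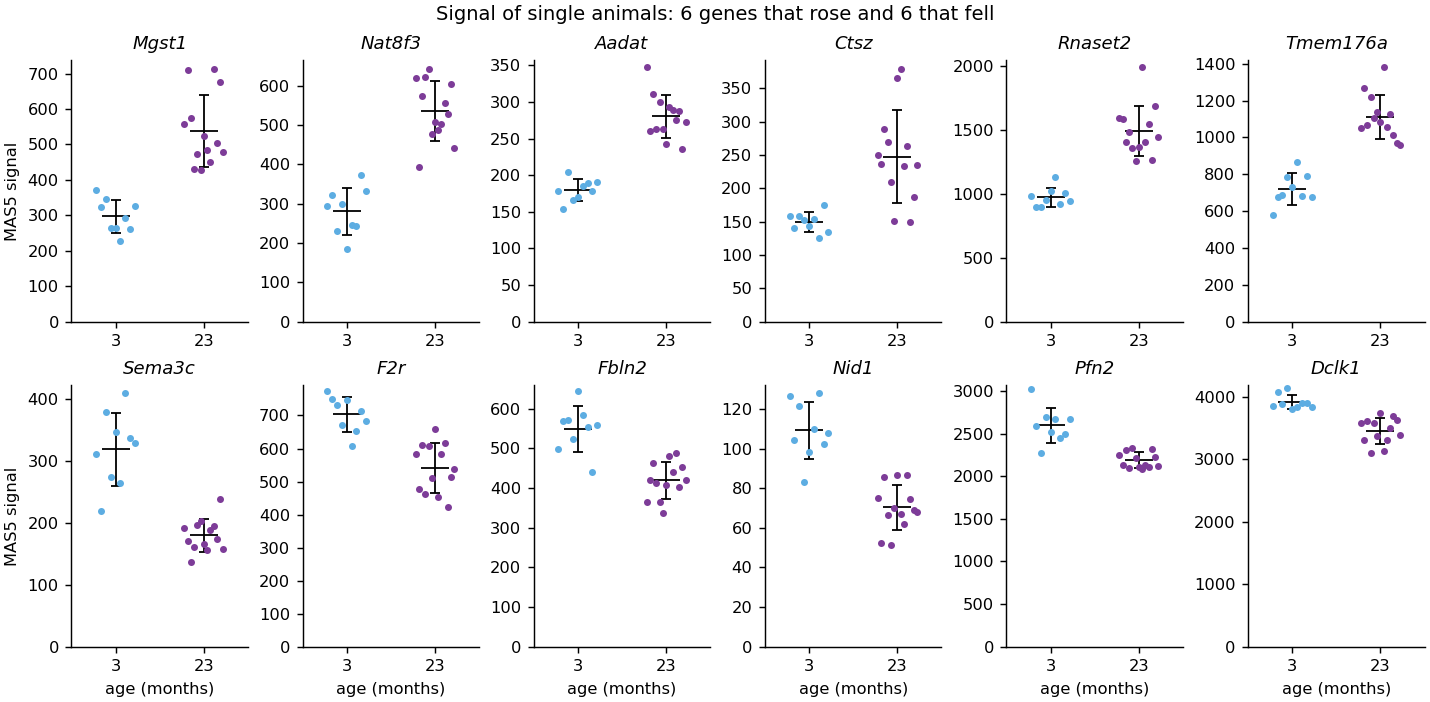
Signal (linear MAS5 units, axis from 0) of each animal at 3 months (9 blue points) and 23 months (13 purple points), with the mean and SD, for 6 genes that rose in the upper row and 6 that fell in the lower. The groups do not overlap for Mgst1, Nat8f3, Aadat, Rnaset2, Tmem176a and Dclk1, and overlap in part for Ctsz, Sema3c, F2r, Fbln2, Nid1 and Pfn2.

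The gene that rose most outside the leading lists was Ecrg4, which encodes a secreted precursor peptide made at brain borders. Its signal was 55.3 to 79.5 (median 68.7) in the young and 97.5 to 218 (median 137) in the old, a log2 difference of 1.05 ± 0.12 (limma adjusted p = 4.44e-09). Ecrg4 is also in the choroid plexus list. Without the arrays of high transthyretin its difference was 1.07 (adjusted p = 4.20e-06). The 10 probe sets of that list other than Ttr and Ecrg4 summed to 2108 to 6254 (median 2382.5) in the young and 2016 to 13564 (median 2360) in the old. Ecrg4 was the 1 called member (8.33%) of 12 probe sets of that list, where 3.12% of all tested were called.

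Cdh23 and Sema3b followed at low signal. Cdh23, a cadherin, stood at 17.2 to 95.7 (median 68.5) in the young and 93.5 to 162 (median 124) in the old (0.98 ± 0.18, adjusted p = 0.000209), where 1 young animal lay far below the rest and the plain two-sample test did not pass (adjusted p = 0.092). Sema3b, a secreted semaphorin, stood at 30.2 to 62.8 and 68.3 to 122 (0.89 ± 0.15, adjusted p = 4.57e-05). With signals under 64 set to 64 the differences were 0.99 for Ecrg4, 0.75 for Cdh23 and 0.49 for Sema3b, all called. Of the 177 rises 21 had a mean under 100 at 3 months, and 19 of these were called with signals under 64 set to 64.

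Some enzymes that handle foreign or reactive compounds rose. Mgst1, the microsomal glutathione transferase, measured 226.5 to 372 (median 291) in the young and 428 to 714 (median 503) in the old. The groups did not overlap and the log2 difference was 0.85 ± 0.09 (adjusted p = 2.25e-10). In the list of oxidative defence and metal binding 5 of 45 probe sets (11.1%) rose and 1 (2.22%) fell, where 2.15% and 0.975% of all tested did. The median difference was 0.05 and 55.6% of the list lay above 0. The cytosolic transferases Gstp1 and Gsta1 rose 1.27-fold and 1.20-fold (adjusted p = 0.000993 and 0.00126), from means of 2019 ± 159 and 1739.8 ± 122 (SD, n = 9) to 2574 ± 353 and 2098 ± 235 (SD, n = 13). The other rises were Nfe2l2, the transcription factor that drives many detoxification genes, at 1.21-fold, and Gpx1, a peroxidase for hydrogen peroxide, at 1.20-fold. The Gpx1 call ended when 3 months replicate 5 was left out (adjusted p = 0.064). Hmox2, the constitutive haem oxygenase, fell 1.20-fold (adjusted p = 0.00121).

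Other enzymes of small molecules rose that no list held, and they are named here after their values were seen. Nat8f3, a gene of the N-acetyltransferase 8 family, went from 184 to 373 (median 294) in the young to 393 to 642 (median 528) in the old (0.95 ± 0.09, adjusted p = 4.20e-11), with no overlap. Its relative Nat8f5 rose 1.29-fold, a call that ended in 11 fits that each omitted 1 array (adjusted p up to 0.125) and without the arrays of high transthyretin (adjusted p = 0.111). Aadat, the aminotransferase that turns kynurenine into kynurenic acid, measured 153 to 204 (median 178.5) against 236 to 347 (median 275), again with no overlap (0.64 ± 0.08, adjusted p = 3.07e-07). Pon2, a lactonase with antioxidant activity, had young signals of 1250 to 1399.9 and old signals of 1432 to 1756 (0.26 ± 0.04, adjusted p = 1.61e-05). For Nat8f3, Aadat and Pon2, 13 of 13 old animals lay above every young one.

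Maob, the monoamine oxidase of astrocytes and serotonin neurons, rose 1.23-fold from 1900.2 ± 208 to 2324.5 ± 181 (adjusted p = 0.000699). Qdpr, which regenerates the tetrahydrobiopterin cofactor of monoamine synthesis and is abundant in oligodendrocytes, rose 1.29-fold from 4694 ± 391.5 to 6059 ± 551 (adjusted p = 5.95e-07). Fah, the last enzyme of tyrosine breakdown, rose 1.28-fold, Naprt, which makes NAD from nicotinic acid, 1.26-fold, Xdh, xanthine dehydrogenase, 1.31-fold, and Aldh9a1, an aldehyde dehydrogenase, 1.14-fold (adjusted p = 0.00224, 0.00134, 0.00552 and 0.0035). All 4 stayed called without the arrays of high transthyretin and in each fit that left out 1 array. The acetyl-CoA synthetase gene Acss1 rose 1.27-fold, a call that ended without those arrays (adjusted p = 0.24) and when 3 months replicate 4 was left out (adjusted p = 0.058).

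Outside the leading lists, the lysosomal list held the most rises. Lysosomes break down material taken up from outside or handed over by autophagy. Of 48 probe sets of the lysosomal list 15, from 15 genes, rose and 0 fell, a share of 31.3% where 2.15% of all tested probe sets rose, and the median difference of the list was 0.13 against −0.0013 over all tested. The list shares no gene with the 3 leading lists, but microglia are rich in lysosomal transcripts and their summed marker signal rose between the same animals, as given above.

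Npc2, which carries cholesterol out of the lysosome, measured 1689 to 2041 (median 1880.3) in the young and 2709.8 to 3345 (median 2949) in the old, so that the lowest old animal stood well above the highest young one. Rnaset2, the acid ribonuclease, measured 897 to 1133 (median 952) and 1260.3 to 1994 (median 1443), also with no overlap (0.61 ± 0.06, adjusted p = 2.37e-10). Lamp2, a protein of the lysosomal membrane, measured 1178 to 1564 in the young and 1598 to 2279 in the old (0.44 ± 0.07, adjusted p = 8.91e-06), while its other probe set had a difference of 0.12 that did not pass. The proteases of the list differed in size. Ctsz rose most (0.69 ± 0.13, adjusted p = 0.00026), from 125 to 175 in the young to a wide 149.7 to 379 in the old. Ctsd rose 1.27-fold, the asparaginyl protease gene Lgmn 1.26-fold, Ctsh 1.22-fold, Tpp1 1.19-fold and Ctsb 1.16-fold (adjusted p = 5.12e-06, 0.00467, 0.017, 0.011 and 0.00134). The membrane protein genes Tmem176b and Cd63 rose 1.40-fold and 1.34-fold, and Grn, Arsa, Hexa and Laptm4b rose 1.18-fold, 1.18-fold, 1.14-fold and 1.14-fold. Tmem176a, the neighbour and relative of Tmem176b and in no list, rose 1.54-fold with no overlap, with 580.2 to 868 in the young and 960.1 to 1379.9 in the old (adjusted p = 1.48e-11).

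Without the arrays of high transthyretin 11 lysosomal probe sets rose. The calls of Tpp1, Grn, Arsa, Hexa and Laptm4b ended there (adjusted p = 0.142, 0.071, 0.095, 0.114 and 0.101), and those of Hexa, Ctsh and Laptm4b also ended in 9, 1 and 1 fits that each omitted 1 array (adjusted p up to 0.096, 0.051 and 0.052).

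Other lists of protein breakdown held no rise that passed. Of 15 probe sets of the vacuolar proton pump, which acidifies lysosomes and synaptic vesicles, 0 rose and 1 (6.67%) fell, where 2.15% and 0.975% of all tested did. The fall was that of Atp6v1b2, a catalytic-sector subunit, by 1.16-fold from 3391 ± 220 to 2929.9 ± 268 (adjusted p = 0.00552, and 0.055 without the arrays of high transthyretin). A brighter Atp6v1b2 probe set, at −0.07, was not called. Of 23 autophagy probe sets 0 rose and 2 (8.7%) fell. Vmp1, needed to form autophagosomes, fell 1.29-fold and Tbc1d14, a Rab regulator that restrains autophagy, 1.20-fold (adjusted p = 0.00684 and 0.000105). Among 29 proteasome and 52 ubiquitin ligase and deubiquitinase probe sets none was called in limma in either direction, with median differences of −0.04 and −0.03. At an unadjusted p under 0.05 the proteasome list had 0 higher and 1 lower, and the ubiquitin list 3 and 7. The members of smallest p were Psmd8 at −0.16 (adjusted p = 0.063) and Usp4 at 0.20 (adjusted p = 0.086).

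Immune genes outside the leading lists rose in part. Of 17 probe sets of MHC class I and the immunoproteasome, which show peptides of the cell's own proteins, 4 (23.5%) rose and 0 fell. Of all tested, 2.15% rose and 0.975% fell. The 4 were both probe sets of B2m, the light chain, by 1.24-fold and 1.23-fold, Psme1 by 1.23-fold and Psmb9 by 1.63-fold. The interferon list, 17 probe sets, had a median of 0.18 with 88.2% of them above 0, but 0 were called in limma in either direction (5 higher and 0 lower at an unadjusted p under 0.05). Of 35 probe sets of cytokine and inflammatory signalling 11 (31.4%) rose and 0 fell. Il33, an alarmin of glial nuclei, measured 444.5 to 548 in the young and 549 to 714.5 in the old (0.31 ± 0.06, adjusted p = 0.000746), and a second probe set stood at 0.35, which did not pass. Annexins, which bind membranes in the presence of calcium, rose in the same list: Anxa3 by 1.68-fold and 1.46-fold on its pair of probe sets, Anxa4 by 1.29-fold and Anxa5 by 1.23-fold. The calcium binding genes S100a6 and S100a4 rose 1.75-fold and 1.72-fold, and Stat3, the transcription factor below Il6st, 1.32-fold. The Stat3 call ended without the arrays of high transthyretin (adjusted p = 0.362) and in 6 fits that each omitted 1 array (adjusted p up to 0.063).

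Several rises in no list are genes known from macrophages or microglia, and they too were named after their values were seen. Mpeg1, a pore-forming protein of phagocytes, rose on both probe sets (1.70-fold and 1.53-fold), and its brighter probe set showed no overlap, 539.7 to 812.5 against 819.8 to 1334 (adjusted p = 1.52e-08). Arl11, a small GTPase, measured 56.9 to 97.0 in the young and 105 to 165 in the old (0.82 ± 0.11, adjusted p = 1.35e-07). Ms4a6bl1, of the MS4A family of membrane proteins, rose 1.64-fold and Pld4, a nucleic acid exonuclease, 1.41-fold (adjusted p = 1.81e-05 and 0.000267). Tmem119, a marker of resident microglia, rose less, 1.24-fold from 248 ± 29.5 to 306 ± 32.8 (adjusted p = 0.00806). These rises ran beside the microglial sum given above, whose part in them was not tested.

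Of 45 probe sets of astrocyte markers 8 (17.8%) rose and 0 fell, where 2.15% of all tested rose; 82.2% had a difference above 0, and the list median was 0.075. Vim, an intermediate filament of reactive astrocytes and vessels, rose 1.52-fold, the transcriptional inhibitor Id4 1.34-fold and Gfap 1.32-fold. S100b, at 10957.5 ± 696 in the young and 12821 ± 1273 in the old, rose 1.17-fold (adjusted p = 0.00208), and Mlc1, a membrane protein of astrocyte end feet, 1.15-fold (adjusted p = 0.01). The 3 probe sets of the water channel gene Aqp4 had differences of 0.03, 0.03 and 0.06 and the pair of the glutamate transporter gene Slc1a2 0.04 and 0.17, none of which passed. Slc1a3, another glutamate transporter gene of the astrocyte markers, rose by 0.19 on its brightest probe set on all arrays (limma adjusted p = 0.00423). Its other probe sets, at −0.18 and −0.01, were not called.

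In the list of potassium channels 0 of 53 probe sets rose and 3 (5.66%) fell, where 2.15% and 0.975% of all tested did. Of 31 of sodium, chloride and HCN channels and ion pumps 1 (3.23%), Fxyd1, rose and 0 fell. No probe set of the potassium channel list was called without the arrays of high transthyretin. The list does not hold Kcnj16, a potassium channel gene that rose and stayed called without them (limma adjusted p = 0.000644). Rises of other ion transport genes, in no list, were picked after their values were seen. Kcnj16, an inward rectifier of astrocytes and epithelia, measured 133 to 259.9 (median 188) in the young and 158 to 381 (median 304) in the old (0.65 ± 0.11, adjusted p = 7.34e-05), and 0.54 on its remaining probe set did not pass. Fxyd1, the phospholemman that modulates the sodium pump, rose 1.35-fold from 695 ± 85.1 to 939.7 ± 105 (adjusted p = 4.57e-05), and its relative Fxyd3 1.34-fold (adjusted p = 0.000533). Wnk1, a kinase that controls chloride cotransporters, had no overlap, 1348 to 1734 against 1791 to 2293 (0.36 ± 0.05, adjusted p = 1.50e-06). A dimmer Wnk1 probe set, at 0.12, was not called. Slc9a3, a sodium and proton exchanger, rose 1.59-fold from low signals, 57.8 to 91.3 against 80.8 to 153 (adjusted p = 0.000495). Itih3, a hyaluronan-binding protein and likewise in no list, rose 1.41-fold from 3657 ± 513 to 5172 ± 877.5 (adjusted p = 1.16e-05).

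Oligodendrocyte genes moved little. Of 30 probe sets 2 (6.67%) rose and 1 (3.33%) fell, where 2.15% and 0.975% of all tested did. The rises were Qdpr and Plekhb1 and the fall Ugt8, which makes the galactolipids of myelin. Plekhb1 was 1.16-fold higher and Ugt8 1.21-fold lower (adjusted p = 0.024 and 0.029). The calls of Plekhb1 and Ugt8 ended without the arrays of high transthyretin (adjusted p = 0.093 and 0.217) and in 2 and 4 fits that each omitted 1 array. The probe sets of Mbp had differences of 0.07 and 0.08 and that of Mog −0.02, none of which passed. None of 12 probe sets of oligodendrocyte precursors was called in limma, and 0 had an unadjusted p under 0.05.

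Of 60 probe sets of basement membrane and extracellular matrix 2 (3.33%) rose and 4 (6.67%) fell, where 2.15% and 0.975% of all tested did, so the share of rises was near the background. Without the arrays of high transthyretin 3 rose and 4 fell. Nid1, which links laminin to collagen IV in basement membranes, measured 82.9 to 128 (median 108) in the young and 51.3 to 86.8 (median 68.9) in the old (−0.64, SE 0.13, adjusted p = 0.000677), whereas 0.06 on its brighter probe set did not pass. Fbln2, another basement membrane protein, measured 441 to 644 (median 559.8) and 336 to 487 (median 419.6), a fall of 1.31-fold (adjusted p = 0.000779). Col4a5, a collagen IV chain, and Vtn, vitronectin, fell 1.49-fold and 1.53-fold. Ccn2, a matricellular growth factor, rose 1.57-fold (196 to 359 against 321.5 to 595, adjusted p = 0.000105), and Timp2, an inhibitor of matrix metalloproteases, 1.22-fold on one of its probe sets, with −0.12 and no call on the other. The summed signal of 36 endothelial and pericyte probe sets lay between 18463 and 21233 in the young and between 19347 and 24114 in the old. In that list 1 (2.78%) rose, Abcb1a, the efflux pump of the blood-brain barrier, by 1.40-fold, and 1 (2.78%), Vtn, fell. The Abcb1a call ended in 6 fits that each omitted 1 array (adjusted p up to 0.077) and without the arrays of high transthyretin (adjusted p = 0.131).

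In the cytoskeleton list 5 of 105 probe sets (4.76%) rose and 3 (2.86%) fell, where 2.15% and 0.975% of all tested did. Only 1 rose and 1 fell without the arrays of high transthyretin. Beside Vim, the rises were Msn, moesin, which ties actin to the membrane, at 1.32-fold, Capg, which caps filament ends, at 1.30-fold, Arpc1b, a subunit of the branching complex Arp2/3, at 1.22-fold, and a probe set of Klc1. The calls of Msn, Capg and Arpc1b ended without the arrays of high transthyretin (adjusted p = 0.2, 0.322 and 0.231) and in 1, 7 and 1 fits that each omitted 1 array. Outside the lists, Cnn2, a calponin, rose 1.42-fold from 201 ± 20.1 to 291 ± 67.7 and Vcl, vinculin, 1.19-fold from 764 ± 45.6 to 910.3 ± 47.1 (adjusted p = 0.000232 and 0.000677), and both stayed called without those arrays. Pfn2, the profilin of neurons, fell: 2277 to 3022 (median 2585) in the young and 2090 to 2335 (median 2136) in the old (−0.25, SE 0.04, adjusted p = 0.000168). The other probe set of Pfn2 had a difference of 0.00 that did not pass. Arpc2, another subunit of Arp2/3, fell 1.15-fold, a call that ended without the arrays of high transthyretin (adjusted p = 0.131) and in 4 fits that each omitted 1 array (adjusted p up to 0.088).

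Falls were smaller than rises, with a median size of 0.26 against 0.35 outside the leading lists. Sema3c, a secreted guidance protein, fell most: 218 to 408 (median 328) in the young and 137 to 238 (median 173) in the old, with all 13 old animals below the young mean. In the list of axon growth and guidance 5 of 64 probe sets fell and 0 rose, 7.81% where 0.975% of all tested fell, and 4 fell without the arrays of high transthyretin. The list median was −0.11 and 26.6% of its probe sets had a difference above 0, against 49.6% of all tested. The falls were Sema3c, Nfasc, a cell adhesion molecule of the axon initial segment, Dclk1, a kinase on microtubules of growing neurites, and both probe sets of Stmn2, which frees tubulin at growth cones. Dclk1 was bright and changed little but evenly, 3809 to 4141 in the young and 3105 to 3751 in the old (−0.18, SE 0.04, adjusted p = 0.000427). Its other probe sets had differences of 0.05 and −0.08 that did not pass.

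Stmn2 fell 1.16-fold on its dimmer probe set (adjusted p = 0.00518) and 1.23-fold on the brighter (adjusted p = 0.033, a call that ended in 8 fits that each omitted 1 array (adjusted p up to 0.083) and without the arrays of high transthyretin, adjusted p = 0.072). Nfasc fell 1.31-fold on 1 probe set, from 740.4 to 1370.1 in the young to 625 to 859 in the old (adjusted p = 0.000533), whereas its other probe sets had differences of 0.10 and 0.34 that did not pass. The probe sets of Nfasc thus had no common direction.

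Falls were called in the lists of both sides of the synapse. Of 70 probe sets of postsynaptic scaffold and adhesion 6 (8.57%) fell and 1 (1.43%) rose, and of 61 of the synaptic vesicle 3 (4.92%) fell and 0 rose, where 0.975% of all tested fell and 2.15% rose. Without the arrays of high transthyretin the falls were 2 and 1 and 0 rose in either list. Homer1, the scaffold between glutamate receptors and calcium stores, gave 3 of the 6, and its probe sets differ in brightness and size: one went from a mean of 1038 ± 175 to 633.5 ± 144 (−0.73, adjusted p = 2.16e-06), a bright one from 1937 ± 204 to 1700.5 ± 127 (−0.18, adjusted p = 0.045) and a dim one from 217.5 to 121 (−0.78, adjusted p = 0.033). The calls of the last pair ended in 13 and 7 fits that each omitted 1 array (adjusted p up to 0.128 and 0.115) and without the arrays of high transthyretin (adjusted p = 0.115 and 0.196). Its other tested probe sets had differences of −0.16 and −0.28 that did not pass. Dlg3, a scaffold of NMDA receptors, fell 1.27-fold from 461 ± 54.2 to 362 ± 41.7 (adjusted p = 0.00205, 0.069 without the arrays of high transthyretin), and its other probe sets had differences of −0.18 and −0.02 that did not pass. The other falls were Nlgn3, on 1 of 2 probe sets, and Nfasc, which the list of axon growth and guidance also counts. Nlgn3 fell 1.40-fold (limma adjusted p = 0.024). The Nlgn3 call ended in 4 fits that each omitted 1 array and without the arrays of high transthyretin (limma adjusted p = 0.149). Nfasc and the Homer1 probe set at −0.73 were the 2 falls still called without those arrays. The member that rose, Cdh13, a cadherin held by a lipid anchor, did so by 1.21-fold on 1 of 3 probe sets, adjusted p = 0.048. That call ended in 12 fits that each omitted 1 array (adjusted p up to 0.118) and without the arrays of high transthyretin (adjusted p = 0.276).

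On the releasing side Slc17a6, a vesicular glutamate transporter, fell 1.34-fold, Syngr3, a vesicle membrane protein, 1.17-fold, and Amph, amphiphysin of vesicle recovery, 1.14-fold (adjusted p = 0.015, 0.00531 and 0.03). Slc17a6 and Amph were not called without the arrays of high transthyretin (adjusted p = 0.117 and 0.077), and the Amph call ended in 7 fits that each omitted 1 array (adjusted p up to 0.088). Of 32 probe sets of glutamate receptors and partners 1 (3.125%) rose and 0 fell, where 2.15% and 0.975% of all tested did. The rise was that of Grip2, an anchor of AMPA receptors, from 120.2 ± 23.9 to 159 ± 22.5 (1.34-fold, adjusted p = 0.00413). Glra2, a glycine receptor subunit, was the 1 fall (6.25%) among 16 probe sets of GABA-A and glycine receptors, and 0 rose. It went from 79.1 to 183 in the young to 13.5 to 109 in the old. The difference of −0.81 (adjusted p = 0.011) came to −0.60 with signals under 64 set to 64. The Glra2 call ended in the plain two-sample test (adjusted p = 0.103) and in the fit on the 22 arrays of these ages alone (adjusted p = 0.092). The lists of interneuron peptides (20 probe sets), neuromodulator receptors (51) and voltage-gated calcium channels (18) had 0 calls in limma in either direction, and 3, 4 and 0 lower and 0 higher at an unadjusted p under 0.05.

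Kinases and G protein regulators carry signals from receptors into the cell. In the list of small G protein and kinase signalling 5 of 117 probe sets (4.27%) fell and 2 (1.71%) rose, where 0.975% and 2.15% of all tested did, and 1 fell and 1 rose without the arrays of high transthyretin. Cdk5r1, the activator of the neuronal kinase Cdk5, measured 250.5 to 354 (median 281) in the young and 190.2 to 254 (median 225.5) in the old (−0.36, SE 0.07, adjusted p = 0.000358). Pak1, a kinase below Rac that shapes spines, fell 1.32-fold, with 351 to 638 in the young and 268 to 414 in the old (adjusted p = 0.00342, 0.083 without the arrays of high transthyretin). A brighter Pak1 probe set, with means of 3284 and 3034, had a difference of −0.12 and was not called (limma adjusted p = 0.184). In a separate list of calcium/calmodulin kinases and phosphatases 2 of 36 probe sets (5.56%) fell, those of Camk4 and Prkcb, and 0 rose. Without the arrays of high transthyretin 1 of that list fell. Camk4, a nuclear kinase activated by calmodulin, fell 1.54-fold, with 155 to 323 in the young and 79.5 to 208 in the old (adjusted p = 0.00418), and a dimmer probe set, at −0.13, was not called. Prkcb, a protein kinase C, fell 1.21-fold, a call that ended without the arrays of high transthyretin (adjusted p = 0.254) and in 15 fits that each omitted 1 array (adjusted p up to 0.082). A brighter Prkcb probe set, at −0.10, was not called. Ptpn11, a phosphatase that passes growth factor signals on, rose 1.23-fold from 3639 ± 236 to 4472 ± 401 (adjusted p = 1.83e-05). F2r, the thrombin receptor, in no list, was among the steadiest falls: 608 to 774.5 (median 713) in the young and 422 to 659.6 (median 538) in the old, a fall of 1.31-fold with all 13 below the young mean (adjusted p = 7.61e-05).

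Related groups of signalling genes were looked at after these calls were seen and carry no test of their own. Of 17 probe sets of 10 genes of the cAMP-dependent kinase and its partners 3 fell and 0 rose, where 0.975% and 2.15% of all tested did. The genes that fell were the inhibitor Pkia (1.29-fold, adjusted p = 0.011), the regulatory subunit Prkar1a (1.14-fold, adjusted p = 0.00739) and the catalytic subunit Prkacb (1.28-fold, adjusted p = 0.029). Each had brighter or other probe sets that were not called, such as that of Prkacb at a mean of 4616 and a difference of −0.02, and none of the 3 was called without the arrays of high transthyretin (adjusted p = 0.128, 0.203 and 0.188). The Prkacb call also ended in 5 fits that each omitted 1 array (adjusted p up to 0.082). The Kv4 potassium channels carry the A-type current of dendrites. Of 11 probe sets of 7 genes of these channels and their partners 3 fell and 0 rose, where 0.975% and 2.15% of all tested did. They were 1 each of the auxiliary subunits Kcnip2, Kcnip4 and Dpp6, at −0.32, −0.28 and −0.26 (limma adjusted p = 0.018, 0.00238 and 0.034). Brighter probe sets of Kcnip2 and Dpp6, at −0.07 and −0.09, and the pair of Kcnip3, at 0.09 and 0.15, were not called. The pore subunit genes Kcnd1, Kcnd2 and Kcnd3 were not called, with Kcnd3 at 0.23 and the pair of Kcnd2 probe sets at −0.10 and −0.07. Without the arrays of high transthyretin the adjusted p of the 3 that fell was 0.096, 0.066 and 0.071, and the Dpp6 call ended in 8 fits that each omitted 1 array (adjusted p up to 0.113).

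Chn2, a chimaerin that switches off Rac in response to diacylglycerol, fell 1.39-fold from 215.5 ± 37.5 to 155 ± 32.3 on 1 of 2 probe sets, and Rasgrp1, a diacylglycerol-driven activator of Ras, 1.24-fold from 1120.1 ± 92.9 to 908 ± 123 (adjusted p = 0.00202 and 0.00943). Rasgrp3, of the same family, rose 1.36-fold (adjusted p = 0.00575, 0.057 without the arrays of high transthyretin). Fkbp1b, which steadies the ryanodine receptor of calcium stores, fell 1.21-fold from 498 ± 29.6 to 413 ± 52.5 (adjusted p = 0.032). That call ended in 8 fits that each omitted 1 array (adjusted p up to 0.066) and without the arrays of high transthyretin (adjusted p = 0.15), and the probe sets of Ryr1 and Ryr2 were not called.

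Activity-regulated genes are those that neurons switch on when they fire. Of 59 probe sets 5 (8.475%) fell and 1 (1.695%) rose, where 0.975% and 2.15% of all tested did. Without the arrays of high transthyretin 3 fell and 1 rose. The list median was −0.11, and 23.7% had a difference above 0. Beside the 3 of Homer1, which the postsynaptic list also counts, the falls were Nr4a2, an orphan nuclear receptor induced by activity, 564 to 921 (median 638) in the young and 419 to 687 (median 479.8) in the old (adjusted p = 0.00418), and Ier5, by 1.22-fold (adjusted p = 0.035, a call that ended in 11 fits that each omitted 1 array (adjusted p up to 0.103)). A dimmer Nr4a2 probe set, at −0.35, was not called. Zfp36, which destroys cytokine transcripts, rose 1.28-fold, a call that ended in 10 fits that each omitted 1 array (adjusted p up to 0.104) and without the arrays of high transthyretin (adjusted p = 0.226).

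CA1 pyramidal markers had values below 0 throughout, but few passed. In 15 of 15 probe sets the difference was below 0, with a median of −0.12. Of these 2 (13.3%) fell, where 0.975% of all tested did. They were Pou3f1, a POU factor of CA1, from 754 to 1171 in the young to 604 to 973 in the old (−0.32, adjusted p = 0.016), and Lmo3, a LIM protein, by 1.15-fold (adjusted p = 0.015, 0.058 without the arrays of high transthyretin). The Pou3f1 call ended when 3 months replicate 5 was left out (adjusted p = 0.051). The 2 probe sets of Wfs1 had differences of −0.29 and −0.15 and Dkk3 −0.12, none of which passed (adjusted p = 0.115, 0.268 and 0.189). Pan-neuronal markers had a median of −0.04 over 50 probe sets, with 2 calls, both of Stmn2.

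Metabolic and housekeeping lists differed in their counts. Over all probe sets tested 2.15% rose and 0.975% fell. Of 72 probe sets of fatty acid and phospholipid metabolism 5 (6.94%) rose and 2 (2.78%) fell, 4 and 1 without the arrays of high transthyretin. Of 35 of sterol synthesis and uptake 1 (2.86%) rose and 2 (5.71%) fell, and 0 were called without those arrays. None of 74 probe sets of the respiratory chain, 60 of glycolysis and the citrate cycle, 37 of endoplasmic reticulum folding, 116 of transcription and chromatin regulators and 23 of the circadian clock was called in limma in either direction. At an unadjusted p under 0.05 these lists had 0, 7, 1, 5 and 2 higher and 7, 9, 5, 6 and 3 lower, in this order. Ribosomal proteins and translation factors, 64 probe sets, had a median of 0.08 with 87.5% above 0 and 1 call (1.56%), Rpl34, at 1.10-fold. The Rpl34 call ended in 14 fits that each omitted 1 array (adjusted p up to 0.089). It also ended without the arrays of high transthyretin (limma adjusted p = 0.064) and with quantile normalization (limma adjusted p = 0.186). Among lipid genes, Lpl, lipoprotein lipase, fell from 207 to 318.5 (median 281.5) in the young to 125.6 to 219.7 (median 179) in the old (adjusted p = 5.27e-05), Cyp51, of sterol synthesis, fell 1.16-fold (adjusted p = 0.00742, 0.096 without the arrays of high transthyretin), and the fatty acid oxidation genes Acadl and Decr1 rose 1.18-fold and 1.21-fold (adjusted p = 0.00392 and 0.00392, and 0.122 and 0.00971 without those arrays). Slco1c1, the thyroxine transporter of brain vessels and astrocytes, fell 1.21-fold from 1032 ± 91.8 to 854 ± 106 (adjusted p = 0.00224, 0.064 without those arrays).

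**Figure D3:**
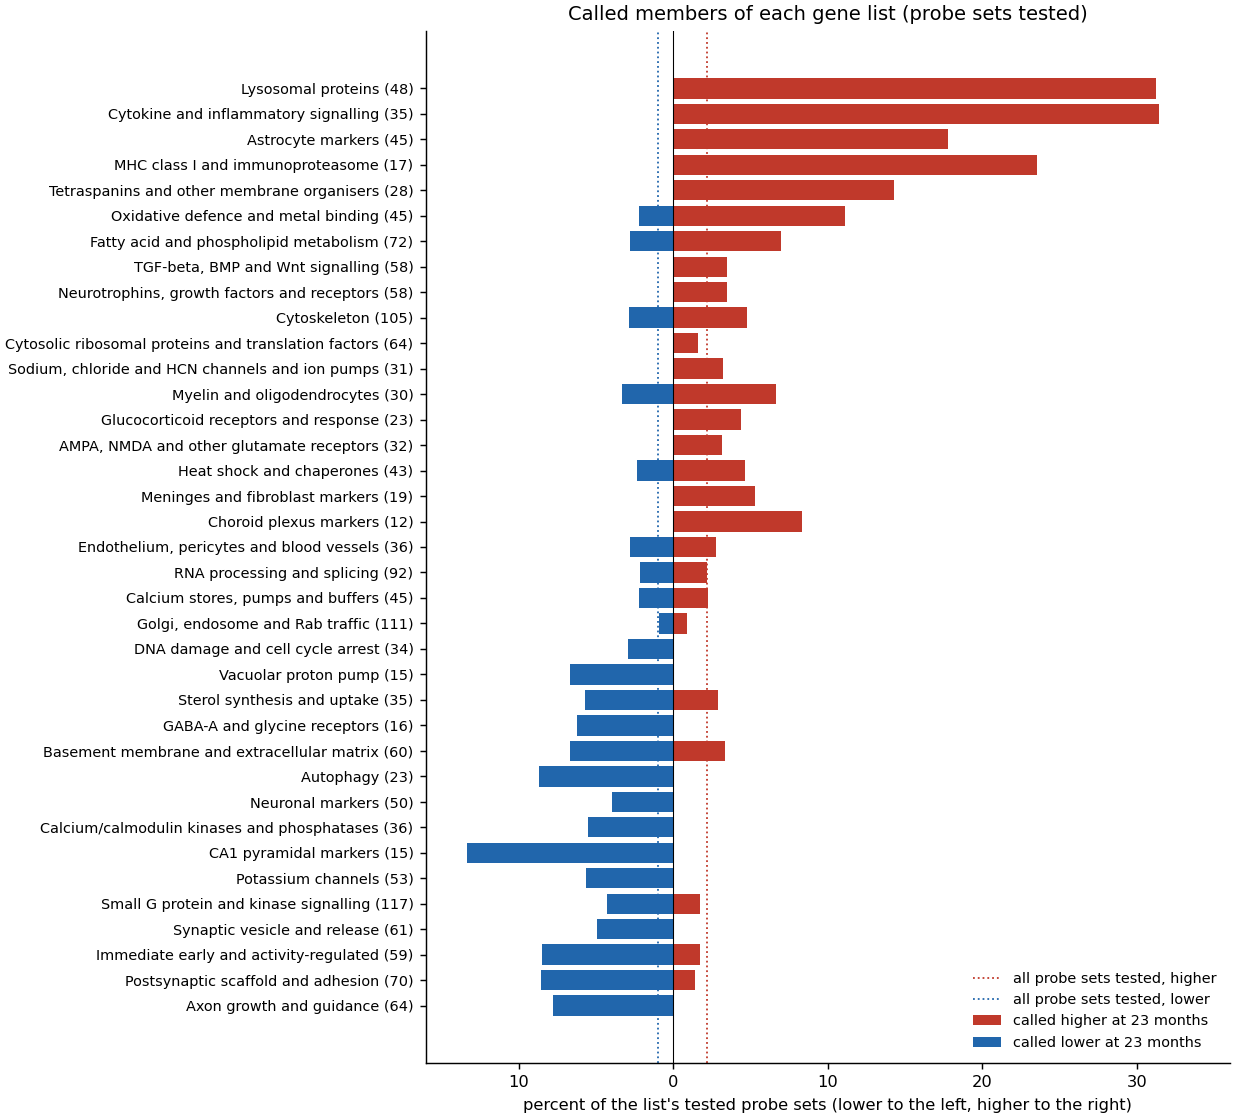
For each gene list with a called member outside the 3 leading ones, the bars give the percent of its tested probe sets (number in brackets) called higher (red, to the right) or lower (blue, to the left) at 23 than at 3 months, and the dotted lines the same over all 9541 tested, 2.15% and 0.975%. The lysosomal list reaches 31.3% higher, and that of cytokine and inflammatory signalling, which also holds annexin and S100 genes, 31.4%. The CA1, autophagy, postsynaptic, activity-regulated and axon lists have the longest bars to the left, each of at most 6 probe sets.

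Probe sets of one gene mostly agreed in direction and seldom in the call. Of the called genes 76 had more than 1 tested probe set. For these a fold given above is that of the called probe set, not of every probe set of the gene. In 66 of them (86.8%) all probe sets had the same sign, where 58.5% of all 1215 such genes did, and in 8 all were called. Klc1, a light chain of the kinesin motor, was the 1 gene called in both directions, 0.17 on one probe set and −0.19 on another (adjusted p = 0.041 and 0.046). Both calls ended in 14 and 12 fits that each omitted 1 array. Since a probe set reads 1 stretch of a transcript, changes in transcript ends and in total level cannot be told apart here.

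Leaving out the 5 arrays of high transthyretin lowered the counts but turned the direction of no called probe set. In that fit 154 probe sets rose (1.61%) and 35 fell (0.367%). Of these 189, 166 were among the 298 and 23 were not. All 298 kept their sign, and the median size was 0.40 against 0.38 for the rises and 0.25 against 0.26 for the falls. Outside the leading lists 113 of 177 rises and 28 of 92 falls remained called. The fit had 17 in place of 22 arrays of these ages and 5 in place of 9 young ones. Of the 20 largest rises outside the leading lists 19 stayed called, all but Ctse (adjusted p = 0.093), and of the 20 largest falls 12. The 8 that were not were Homer1, Nup50, Nlgn3, Crabp1, Ppp2r2c, Slc17a6, Gadd45g and Pak1, with adjusted p of 0.196, 0.076, 0.149, 0.107, 0.252, 0.117, 0.08 and 0.083. In a plain two-sample test of the 22 arrays 18 of the 20 rises and 10 of the 20 falls passed. The rises that did not were Cdh23 and Aebp1, and the falls Glra2, Homer1, Camk4, Nlgn3, Crabp1, Ppp2r2c, Slc17a6, Gadd45g, Pak1 and Nfasc.

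**Figure D4:**
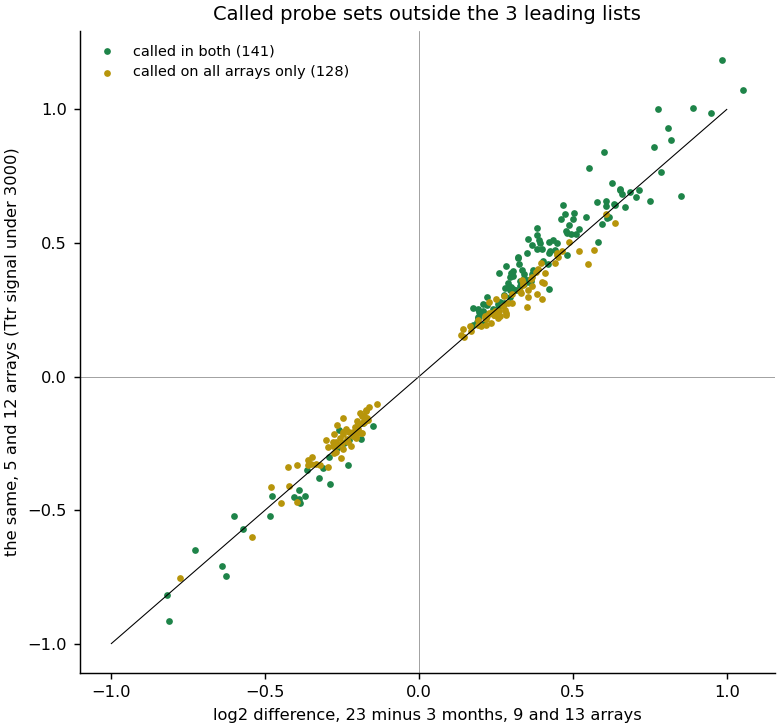
Log2 difference, 23 minus 3 months, of the 269 called probe sets outside the leading lists, on all 9 and 13 arrays (horizontal) and on the 5 and 12 arrays with a transthyretin signal under 3000 (vertical), with the line of equal values. Green points (141) were called in both fits and ochre points (128) on all arrays only; every point keeps its sign.

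A description free of these 22 arrays came from the rats of 12 and 6 months, 9 each, none with high transthyretin. Of the 177 rises 156 (88.1%) had a higher mean at 12 than at 6 months, against 49% of all tested probe sets, and of the 92 falls 77 (83.7%) had a lower one, against 51%. The steps were small, with medians of 0.09 and −0.07, and limma called 1 probe set of 9541 (0.0105%) between 12 and 6 months at an adjusted p under 0.05 and 258 at an unadjusted p under 0.05. The means of Mgst1 at 3, 6, 9, 12 and 23 months were 298, 319.9, 416, 381.5 and 539. Those of Sema3c were 318, 246, 237.5, 196.5 and 179, and those of Nid1 109, 80.6, 76.3, 67.8 and 70.3. Since the fit shares its spread over all ages, only the means of these arrays are independent of the calls.

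**Figure D5:**
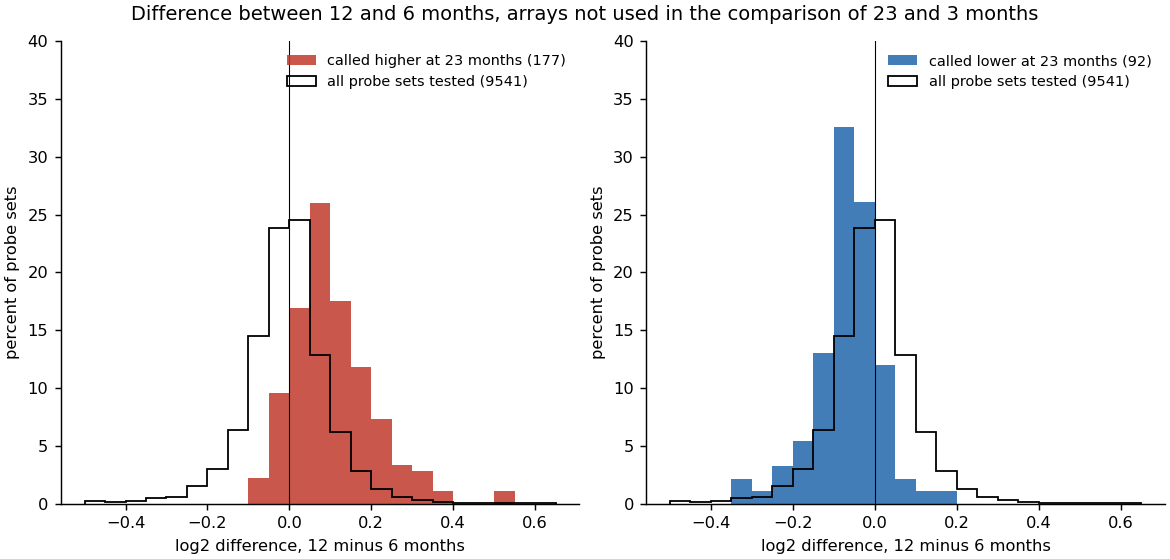
Distribution of the log2 difference between 12 and 6 months (9 arrays each; percent of probe sets in steps of 0.05, outliers drawn in the end bins) for the 177 probe sets outside the leading lists that rose at 23 against 3 months (left, red) and the 92 that fell (right, blue), with all 9541 tested as a black outline. The red bars lie mostly right of 0 and the blue mostly left, around medians of 0.09 and −0.07.

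Promoters were read for motifs of regulators tied to the groups above. The RefSeq table of assembly GRCr8 holds 300 bases around each gene's start, 250 before and 50 after, for 6776 of the 8094 tested genes. The palindrome TCACGTGA, a core of the site bound by TFEB, a regulator of lysosomal genes, lay in 4 of 35 lysosomal genes with a promoter (11.4%) against 1.71% of tested genes and 0.896% of all 27457. Among 11 lysosomal genes that rose it lay in 1, Ctsd. The cAMP response element TGACGTCA, also a palindrome, lay in 5 of 76 genes that fell (6.58%), in 2 of 157 that rose (1.27%) and in 3.17% of tested genes and 2% of all. In activity-regulated genes tested it lay in 6 of 34 (17.6%), and in 0 of the 3 that fell. Palindromes read alike on both strands and neither motif contains the other. Stretches are shown for Ctsd and for 4 of the genes that fell, so that the match can be seen in its place: 5′ to 3′ on the strand of the gene, in lower case, with the motif in capitals.

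Ctsd, GRCr8 chr1:206968822-206968858, minus strand: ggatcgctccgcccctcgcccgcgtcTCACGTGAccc
Pak1, GRCr8 chr1:161522219-161522278, plus strand: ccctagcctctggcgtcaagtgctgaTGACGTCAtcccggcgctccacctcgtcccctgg
Senp2, GRCr8 chr11:92522775-92522834, minus strand: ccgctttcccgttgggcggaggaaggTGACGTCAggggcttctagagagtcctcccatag
Tmem59l, GRCr8 chr16:18975595-18975630, plus strand: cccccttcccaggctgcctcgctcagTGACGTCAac
Zdbf2, GRCr8 chr9:72203513-72203572, plus strand: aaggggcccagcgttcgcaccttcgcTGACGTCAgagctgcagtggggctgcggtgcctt

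Of these, Zdbf2, an imprinted gene, fell from 512.5 to 794 in the young to 313 to 594.5 in the old (adjusted p = 0.000984), and Senp2, a SUMO protease, and Tmem59l, a membrane protein of neurons, fell 1.15-fold and 1.13-fold (adjusted p = 0.027 and 0.018). The last pair was not called without the arrays of high transthyretin (adjusted p = 0.217 and 0.134), and their calls ended in 5 and 1 fits that each omitted 1 array. The fifth gene with the element is Klc1, called in both directions. A match is a run of letters and shows no binding.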

How the data were processed

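RNA of CA1 from 49 rats, 1 array each, was read on Affymetrix RAE 230A arrays. The deposited values are MAS5 signal intensities on a linear scale, scaled by the authors to a target of 500, per the series' design text and the submitters' processing notes. Groups follow the array titles. Of 15923 probe sets, 57 were controls, 12783 had 1 gene symbol in the platform annotation, 312 had several and 2771 were not listed; 12748 were matched to RefSeq (GRCr8) by Entrez ID and their symbols updated. All probe sets with 1 symbol and a signal of at least 100 on 5 of 49 arrays were kept (9541). This filter stands in for the authors' own of 5 presence calls, which were not used here. Signals under 16 were set to 16 (0.0539% of values) and log2 taken. A mean per age was fitted to all arrays in limma 3.58.1 (R 4.3.3; lmFit, eBayes with a variance trend), and p-values of 23 minus 3 months were adjusted over 9541 by Benjamini-Hochberg. The fitting code was tested on simulated data. Python 3.11.15, pandas 2.3.3, scipy 1.17.1 and matplotlib 3.10.9 served for tables, exact tests and figures. MAS5 subtracts a mismatch signal, which makes dim probe sets noisy, and the number of arrays limits the precision.

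The members and gene lists were chosen with earlier results of these data known, so no list is given a test. The rule for named genes took, among called probe sets outside the 3 leading lists, the 20 largest rises and 20 largest falls, up to 4 called members of each list by smallest p (up to 2 where none was called), the 5 rises and 5 falls with the widest gap between the ranges of both ages, genes called in opposite directions and some markers. Other genes named, and the families of related signalling genes, were chosen after their values were seen. Replicate numbers shared by both ages were not used to pair the animals in the main fit. Deviations from the group means of same-numbered animals had correlations of −0.064 to 0.207. Animals of unlike number were not compared, so a link between shared numbers was not tested. Scan dates and behaviour scores were not used here, so batches were not tested. No per-sample column was left unused. Alternatives covered the filter, floor, normalization, test, arrays used and each array left out.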

Additional observations from a re-analysis of the deposited data

Results flagged for a closer look

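Of 154 named probe sets, 10 had 1 array of the 3-month group far from the other 8, by a gap to the nearest above Dixon's limit for 9 values. Chance alone does this in about 1 group in 20, and the 23-month group, with more than 10 arrays, was not examined this way. Cdh23 measured 17.2 on replicate 2 and 55 to 95.7 on the others. S100a4 measured 211.3 on replicate 8 against 284.3 to 364.7, and Serping1 67.4 on replicate 9 against 97.8 to 142.3. Mertk, a receptor for dying cells, measured 90.7 on replicate 1 against 208.5 to 272.3, and its adjusted p went from 0.012 to 0.047 without it. Rbm3, a cold-induced RNA-binding protein, measured 444.5 on replicate 2 against 747.1 to 915.1, and its call ended without that array (adjusted p = 0.074). Qdpr measured 5586.9 on replicate 2 against 4280.1 to 4859.6. Cdk5r1 measured 354.4 on replicate 1 against 250.5 to 294.8, Acadl 534.9 on replicate 9 against 394.8 to 446.7, and Plaat3 1675.3 on replicate 4 against 1307.3 to 1466.1. Hbb measured 210.3 on replicate 4 against 15.4 to 50.5.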

How the results depend on the processing

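Without the 5 arrays of high transthyretin, 189 in place of 298 probe sets were called, from 182 in place of 286 genes, 35 in place of 93 of them lower. In that smaller set 68 in place of 30 had every old array above every young one and 7 in place of 2 below. Fitted on the 22 arrays of both ages alone, 58 were lower. With each array left out in turn, 248 to 321 were called, 178 to 225 higher and 70 to 100 lower, from 237 to 309 genes, and the shares moving the same way from 6 to 12 months were 85.9% to 89.8% of rises and 78.8% to 87.8% of falls. Some genes that were not called changed sign. Tuba8 (−0.01) was 0.060 without arrays of high Hbb, an alternative chosen after seeing the data, and −0.101 to 0.068 with each array left out, above 0 in 10 of these fits. Ttr (−1.18) was 0.61 without its high arrays and Hbb (0.57) −0.39 without its own. Prox1 (0.06) was −0.00396 with array weights, −0.085 with a replicate block, −0.093 without high transthyretin, and −0.070 to 0.176 with each array left out, below 0 in 3. The cause was not tested. Animals of the same number deviated together little (r of −0.064 to 0.207), so the numbers do not pair them; with the replicate block 301 were called, 219 higher and 82 lower, and 214 of the 298 remained. Other floors, filters, centring and normalization gave 268 to 302 calls, array weights 338, the fit without arrays of high Hbb 259 and a plain two-sample test 218.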
